A study of Mus musculus with 12 samples.

Results

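The insulin and insulin-like growth factor (IGF) signalling genes described here are 10 genes named by symbol, namely the receptor genes Igf1r, Insr and Igf2r, the receptor substrate genes Irs1 and Irs2, and the IGF-binding protein genes Igfbp2, Igfbp3, Igfbp4, Igfbp6 and Igfbp7. All 10 were found by symbol among the 30743 rows of the count table. Bulk RNA from sorted lung tumour cells of mice (strain mixed BL6/129) had been sequenced in 12 libraries. The reference group was KT (4 libraries), and the Lkb1-deleted group was KT;Lkb1f/f (3 libraries), with floxed alleles of Lkb1, the kinase gene also called Stk11. The other groups carried the Cre-dependent Cas9 allele H11LSL-Cas9 on the KT background with guides against Sik genes, which encode salt-inducible kinases activated by Lkb1, and were titled sgSik1 (3 libraries) and sgSik1-3 (2 libraries). The genotype label joins these last 5 libraries, called Sik-targeted here. The labels do not spell out KT, the range in sgSik1-3, the age of the mice or whether libraries came from separate animals, so each p-value reflects only variation among libraries, some of which may be technical. Alternative names in the labels mention lentiviral Cre for KT replicates 2 to 4 and not for KT replicate 1. Edits made by Cas9 were not analysed here.

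Insulin, IGF1 and IGF2 are secreted hormones that bind the receptor tyrosine kinases encoded by Insr and Igf1r, and the activated receptors phosphorylate the adaptor proteins IRS1 and IRS2, which recruit phosphoinositide 3-kinase and so switch on AKT and mTOR and restrain FOXO transcription factors. IGF2R, the cation-independent mannose 6-phosphate receptor, carries lysosomal enzymes and removes IGF2 without signalling through a kinase, and IGF-binding proteins hold IGFs in the extracellular space and limit or prolong their access to receptors. In lung, fibroblasts and macrophages are known sources of IGF1, and epithelial cells carry the receptors.

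Total counts ran from 3847760 to 13955181 per library. Stk11 stood at 9.23 to 16.6 CPM (read counts as a rate of the library size, the size scaled by the trimmed mean of M values, TMM) in Lkb1-deleted libraries and at 31.0 to 44.7 in KT. Sik3 stood at 8.74 to 21.0 CPM in Sik-targeted libraries and at 26.9 to 46.7 in KT, while Sik1 was higher in every Sik-targeted library (105 to 514 CPM) than in KT (38.2 to 59.6), and counts over a whole gene do not show an edit. Epithelial markers summed to 1078 to 1518 CPM in KT, 1692 to 2862 in Lkb1-deleted and 2007 to 6264 in Sik-targeted libraries. Surfactant and other alveolar type 2 genes summed to 23084 to 84238, 15471 to 39337 and 10609 to 33984 CPM, in that order. Club and ciliated markers summed to 401 to 3090, 45.5 to 48.8 and 14.2 to 94.4 CPM. Of these lists 4 of 9 rose, 5 of 12 fell and 7 of 7 fell with Sik targeting, where 12.4% of genes passed. With Lkb1 deletion 0 and 0 passed and 3 of 7 fell, where 1.16% of genes passed. Their part in the comparisons with KT was not tested. Transcripts of leukocytes and macrophages were present in spite of a sort against CD45 and F4/80, at 5745 to 13669 CPM in KT, 711 to 2030 in Lkb1-deleted and 90.3 to 1076 in Sik-targeted libraries. The sort did not gate on a fibroblast marker. In bulk samples, fewer cells of a type and less RNA per cell cannot be told apart. Genes with any count numbered 23582 and 23747 in KT replicates 2 and 3, against at most 16533 elsewhere, and the 4 most abundant transcripts held 74.2% of counts in sgSik1 replicate 1. Y-linked transcripts were at 34.2 to 78.4 CPM in Lkb1-deleted replicates 2 and 3 and in both sgSik1-3 libraries, and under 1 CPM in the rest.

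Irs1 and Irs2 were the members that passed a test. Irs2 was higher in sgSik1 than in KT libraries, where 3.84% of all tested genes passed. Irs1 was lower in sgSik1-3 than in KT libraries, a fall of about 7-fold on the fitted scale, where 2.89% passed. The Irs2 call was kept in 9 of 18 alternatives and the Irs1 call in 12 of 18. The Irs1 call rests on 2 sgSik1-3 libraries, which unlike KT held Y-linked transcripts. No member passed with Lkb1 deletion (1.16% of all genes did), or when the 5 Sik-targeted libraries were compared as 1 group with KT (12.4%). Insr, the insulin receptor gene, had the smallest spread of the members over the 12 libraries (coefficient of variation 15.6%, against 23.1% for Igf2r and 41.4% or more for the rest).

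**Figure D1:**
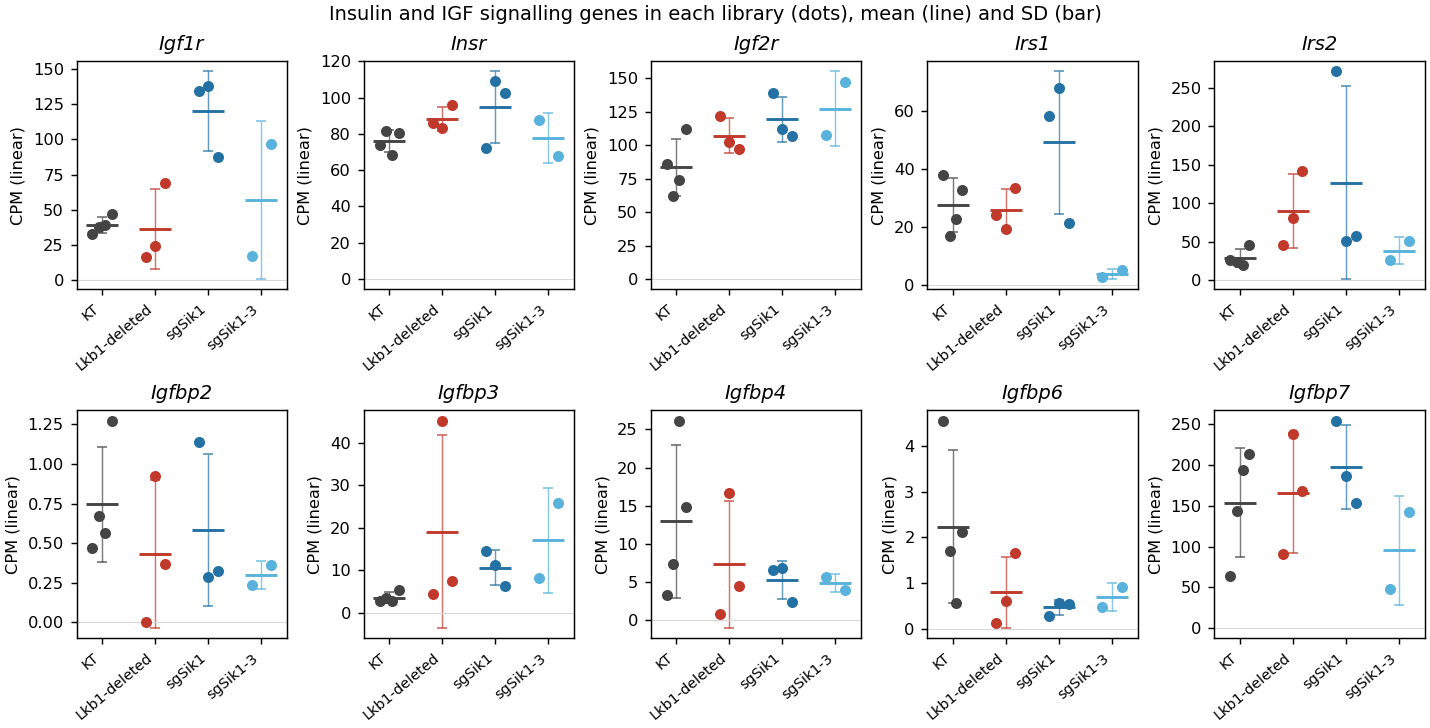
Level of each of the 10 genes in CPM on a linear axis that differs between panels, with 1 dot per library, a line for the group mean and a bar for the SD (KT n = 4, Lkb1-deleted n = 3, sgSik1 n = 3, sgSik1-3 n = 2). The 2 Irs1 values of sgSik1-3, 2.60 and 5.07 CPM, lie below all other groups, and sgSik1 replicate 1 stands alone at 271 CPM of Irs2.

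Levels between genes were compared per kilobase of exon in KT. Igfbp7 was the most abundant member at 127 ± 55.5 CPM per kilobase (SD, n = 4). It was followed by Igf2r at 8.96 ± 2.31, Insr at 5.54 ± 0.44, Irs2 at 4.55 ± 1.88, Irs1 at 3.02 ± 1.03, Igfbp4 at 2.93 ± 2.27, Igf1r at 2.35 ± 0.35, Igfbp6 at 2.01 ± 1.51, Igfbp3 at 1.14 ± 0.39 and Igfbp2 at 0.40 ± 0.20 CPM per kilobase. Igfbp7 stood apart from the rest by far more than its SD, whereas from Insr down to Igfbp3 each gene differed from the next by less than the larger of their SDs.

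Irs1 and Irs2 encode the main docking proteins of the insulin and IGF1 receptors. Irs1 (NCBI gene ID 16367) spans chr1:82233105-82291439 on the minus strand of GRCm38 and Irs2 (gene ID 384783) spans chr8:10984681-11008929, also minus, each with 2 exon blocks in the GENCODE annotation. The promoters of this pair are printed because they carry the results that passed, and because both hold the palindrome CACGTG, an E-box, which several basic helix-loop-helix factors bind. The stretch before each RefSeq start (GRCm38.p6, minus strand, 5′ to 3′) are given in lower case with the searched motifs in capitals, and in Irs1 the capitals also take in the overlapping half-site TGACG, which reads as CGTCA on the printed strand.
Irs1, chr1:82291440-82291689: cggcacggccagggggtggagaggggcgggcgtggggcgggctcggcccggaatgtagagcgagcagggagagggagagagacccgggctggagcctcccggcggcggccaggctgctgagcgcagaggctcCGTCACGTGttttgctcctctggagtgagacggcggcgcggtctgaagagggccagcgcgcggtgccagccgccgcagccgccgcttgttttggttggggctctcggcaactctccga
Irs2, chr8:11008930-11009179: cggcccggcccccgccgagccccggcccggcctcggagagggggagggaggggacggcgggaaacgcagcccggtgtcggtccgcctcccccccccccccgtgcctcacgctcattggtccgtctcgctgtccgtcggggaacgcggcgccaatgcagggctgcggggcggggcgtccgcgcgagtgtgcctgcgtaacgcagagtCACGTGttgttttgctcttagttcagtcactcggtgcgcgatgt

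The E-box lies at -115 in Irs1 and at -44 in Irs2, counted from the RefSeq start. It was chosen after the sequences were seen, and 7.15% of 32851 promoters of the same length hold it. Of the motifs listed with the design, each searched on both strands, the cAMP response element TGACGTCA was in no member promoter (1.79% of all promoters), the FOXO site GTAAACA in none (3.65%), the AP-1 site TGANTCA in the second start of Igfbp2 (7.81%) and the half-site TGACG in Irs1 and Igf2r (20.8%). Promoters were found for 9 of the 10 members. The Igf2r promoter holds the half-site 3 times and the E-box at -48 and -7, and the Igfbp2 promoter holds the E-box at -142. The short contexts show that in Irs1 and Igf2r the half-site and the E-box share bases.
Irs1 at -115: cagaggctccgtCACGTGttttgctcctct
Igf2r at -48: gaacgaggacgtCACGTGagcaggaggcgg
Irs2 at -44: gtaacgcagagtCACGTGttgttttgctct
Igfbp2 at -142: cgtgtgcacaagCACGTGccctcacgcaag
Irs1, Igf2r and Irs2 read tCACGTG, and Igfbp2 reads gCACGTG. A match is a description of letters and shows no binding.

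In replicate order, KT libraries had Irs1 at 37.8, 17.1, 22.9 and 32.9 CPM and Lkb1-deleted ones at 24.2, 19.4 and 33.6. The sgSik1 group had it at 58.3, 67.8 and 21.4 CPM and the sgSik1-3 pair at 2.60 and 5.07. Both sgSik1-3 libraries lay below every other library, and 2 of the 3 sgSik1 libraries lay above every KT library. In counts, sgSik1-3 held 11 and 28 reads of Irs1, against 155 to 476 in the other 10 libraries.

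Irs1 fell in sgSik1-3 against KT by 2.81 on the log2 scale (standard error, SE, 0.59; edgeR quasi-likelihood test with Benjamini-Hochberg adjustment, adjusted p 0.0213; 3.83 ± 1.75 CPM, n = 2, against 27.6 ± 9.40, n = 4). It was 1 of 9 tested members past the threshold of 0.05 in that comparison, in which 2.89% of all 15303 tested genes passed. The direction was the same in the 18 alternatives run for this comparison, which did not include limma-voom or a fit of the compared groups alone. The fall did not pass without KT replicate 1 (-2.62, adjusted p 0.0502), without sgSik1-3 replicate 1 (-2.42, adjusted p 0.271) or without sgSik1-3 replicate 2 (-3.38, adjusted p 0.118), and both of the last fits leave 1 library in the group, assumed to vary like the others. With KT replicates 2 and 3 both left out it was -3.17 (adjusted p 0.0758), and under the replicate block -2.79 (adjusted p 0.0768). Both sgSik1-3 libraries held Y-linked transcripts and no KT library did. With presence of Y-linked transcripts as a covariate, an estimate that rests on the 3 Lkb1-deleted libraries, the Irs1 change was -2.93 (adjusted p 0.0598). Lkb1-deleted replicates 2 and 3, which hold such transcripts as well, were at 19.4 and 33.6 CPM of Irs1, within the KT range.

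The difference between the Sik-targeted groups was larger still for Irs1. Against sgSik1, sgSik1-3 differed by -3.66 in Irs1 (SE 0.63), the smallest p of all 15303 genes tested in that comparison, but with an adjusted p of 0.402 in edgeR. There 0 genes (0%) passed in edgeR, 528 had an unadjusted p under 0.05, 6 passed with DESeq2 and 44 in edgeR without a low-count filter. Irs1 was among those that passed with DESeq2 (-3.64, adjusted p 1.13e-05) and with no filter (-3.61, adjusted p 1.89e-05). Because the Sik-targeted libraries were split in this way, Irs1 in all 5 together showed a change of only 0.17 against KT (SE 0.69, adjusted p 0.908), with an interval of -1.18 to 1.51. In sgSik1 alone it was 0.85 (SE 0.43, adjusted p 0.239). With Lkb1 deletion the change was -0.10 (SE 0.78, adjusted p 0.974), and the groups overlapped.

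KT libraries had Irs2 at 26.3, 23.8, 18.9 and 46.1 CPM and Lkb1-deleted ones at 46.0, 80.7 and 141. The sgSik1 group had it at 271, 50.8 and 57.8 CPM and the sgSik1-3 pair at 25.5 and 50.5. All 3 sgSik1 libraries lay above all 4 KT libraries, Lkb1-deleted replicate 1 lay level with the highest KT library, and the sgSik1-3 values lay within or just above the KT range. Irs2 is a known target of CREB and its CRTC coactivators, which salt-inducible kinases hold out of the nucleus.

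Irs2 rose in sgSik1 against KT by 2.15 (SE 0.57, edgeR adjusted p 0.0453; 126 ± 125 CPM, n = 3, against 28.8 ± 11.9, n = 4). It was 1 of 9 tested members that passed, where 3.84% of 15303 genes did. sgSik1 replicate 1 carried much of the size: without it the change was 0.92 (adjusted p 0.303), with both remaining libraries still above KT. Leaving out any single KT library also ended the call, with changes of 2.11, 2.06, 1.98 and 2.41 for KT replicates 1 to 4 in turn (adjusted p 0.0961, 0.138, 0.138 and 0.0634). So did leaving out sgSik1-3 replicate 1 (2.16, adjusted p 0.0501) or both KT replicates 2 and 3 (1.75, adjusted p 0.406). With the replicate number as a block the change was 2.37 (adjusted p 0.0897), where 1.66% of all genes passed, and with RLE normalization, the scaling of DESeq2, it was 2.13 (adjusted p 0.0508). sgSik1 replicate 1 was the library with the highest summed level of 15 genes of the dissociation response (immediate-early and heat-shock genes that tissue digestion can switch on), 28414 CPM against 1699 to 5104 in KT, and their part in the Irs2 result was not tested. The other groups were above KT in these genes too, at 11866 to 20405 CPM in Lkb1-deleted, 9280 and 10145 in sgSik1 replicates 2 and 3 and 9019 and 10536 in sgSik1-3.

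**Figure D2:**
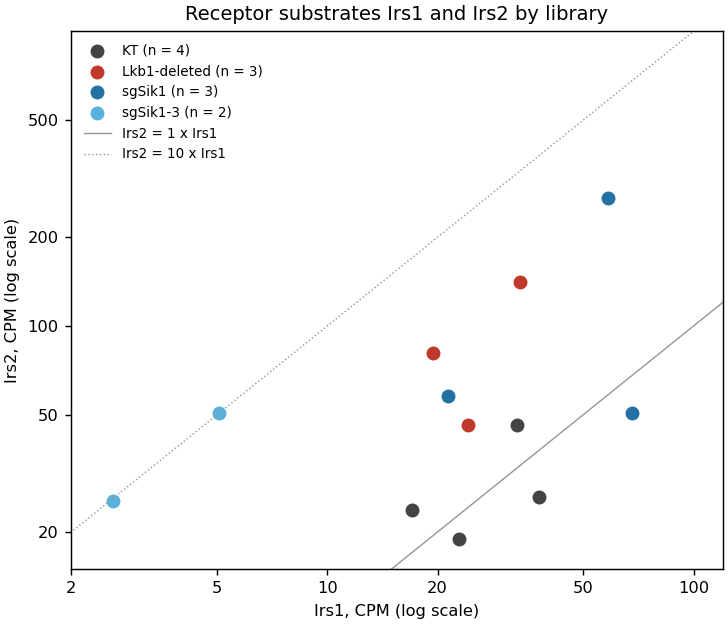
Irs2 against Irs1 in CPM, both on log axes, with 1 dot per library coloured by group and lines where Irs2 equals 1 and 10 times Irs1. The 4 KT libraries lie beside the 1 to 1 line and both sgSik1-3 libraries on the 10 to 1 line.

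In Lkb1-deleted libraries Irs2 differed from KT by 1.64 (SE 0.66, adjusted p 0.280) and in all Sik-targeted libraries by 1.66 (SE 0.60, adjusted p 0.0847), neither past the threshold. Without sgSik1 replicate 1 the latter was 0.68 (adjusted p 0.247), and with DESeq2 it was 1.66 and passed (adjusted p 0.0328). The difference between Lkb1-deleted and Sik-targeted libraries was -0.02 (SE 0.63), with an interval of -1.25 to 1.21. In sgSik1-3 the Irs2 change was 0.42 against KT (SE 0.63, adjusted p 0.732) and -1.73 against sgSik1 (SE 0.72, adjusted p 1). Several of these comparisons share libraries, so their values are given side by side only.

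The ratio of Irs2 to Irs1 counts within a library needs no scaling between libraries. KT libraries had a ratio of 0.696, 1.40, 0.828 and 1.40, and Lkb1-deleted ones had 1.90, 4.15 and 4.21. The sgSik1 group had 4.65, 0.75 and 2.70 and the sgSik1-3 pair had 9.82 and 9.96. Every library outside KT except sgSik1 replicate 2 had a higher ratio than every KT library. Among these, Irs2 lay above all KT libraries in Lkb1-deleted replicates 2 and 3, sgSik1 replicates 1 and 3 and sgSik1-3 replicate 2. Irs1 lay below all KT libraries in both sgSik1-3 libraries. Lkb1-deleted replicate 1 lay within the KT range in both genes. The ratio compares counts of genes of unlike length and is not a ratio of molecules. Irs1 overlaps the antisense gene Gm9747 over 2822 exonic bases and Irs2 the antisense 9530052E02Rik over 162, and with the strand setting not given, reads of the pairs cannot be told apart.

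**Figure D3:**
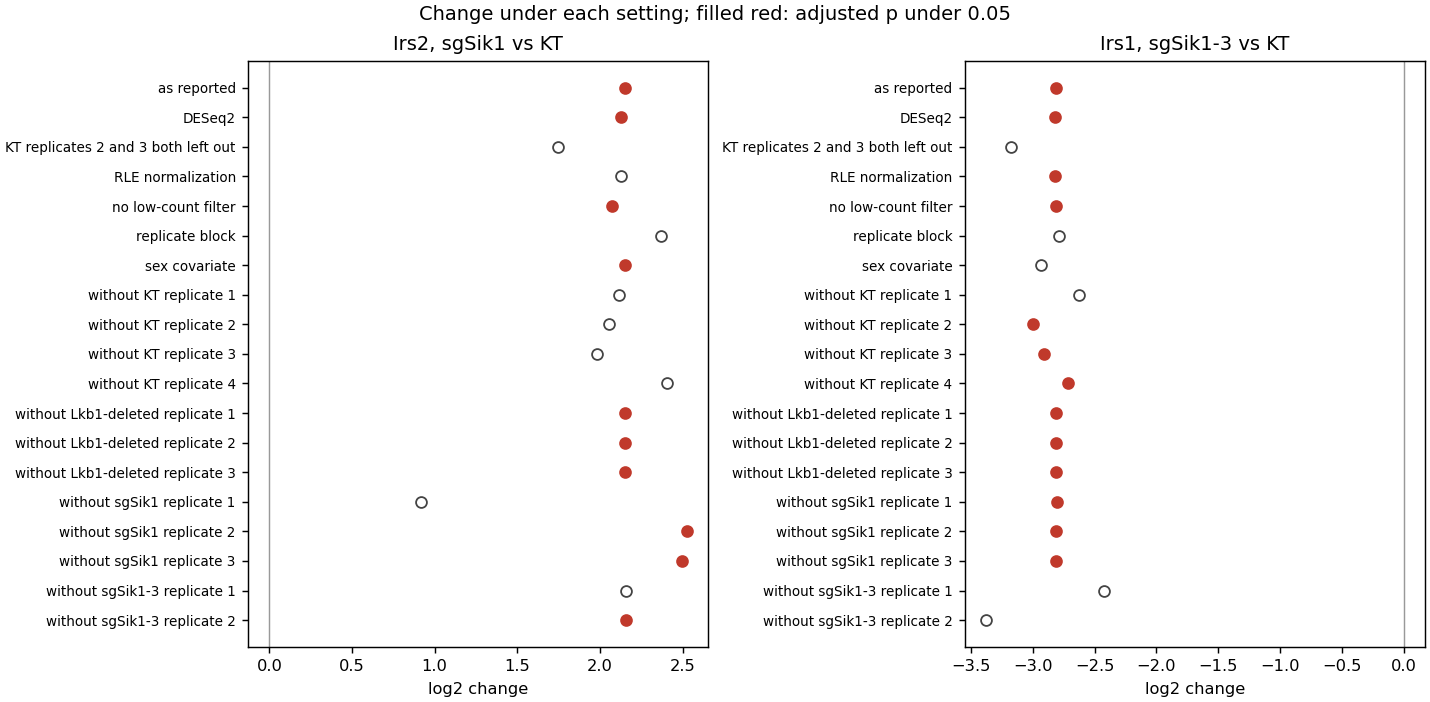
Fitted log2 change of Irs2 in sgSik1 against KT (left) and of Irs1 in sgSik1-3 against KT (right) as reported and under each alternative, where a filled red dot has an adjusted p under 0.05 and an open dot does not. The direction is the same in all 18 alternatives of each panel, and the Irs2 change is smallest, 0.92, without sgSik1 replicate 1.

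Among genes with a mean of at least 5 CPM (8129 genes), those whose log2 CPM followed Irs2 most closely over the 12 libraries were Bcl9l (Pearson r 0.966), Ccdc64b (0.927) and Vasn (0.926). For Irs1 they were Dhcr7 (0.839), Gpr146 (0.822) and Cbx6 (0.819). These correlations describe libraries that share groups and depth and carry no test.

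Of the receptor genes none passed a test as reported. Igf1r (gene ID 16001), which encodes the IGF1 receptor, spans chr7:67952257-68233668 on the plus strand. KT libraries had Igf1r at 33.2, 38.1, 39.3 and 47.3 CPM, Lkb1-deleted ones at 16.3, 24.5 and 69.1, the sgSik1 group at 135, 138 and 87.7 and the sgSik1-3 pair at 17.5 and 96.8. The 3 sgSik1 libraries and sgSik1-3 replicate 2 lay above all KT libraries, whereas sgSik1-3 replicate 1 and 2 of the 3 Lkb1-deleted libraries lay below them.

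The Igf1r change in sgSik1 against KT was 1.63 (SE 0.52, adjusted p 0.0889 in edgeR; 120 ± 28.1 CPM, n = 3, against 39.5 ± 5.86, n = 4). It did not pass, but did with DESeq2 (1.58, adjusted p 0.0490), with no low-count filter (1.58, adjusted p 0.00471), without Lkb1-deleted replicate 1 (1.63, adjusted p 0.0460) and with the Y-linked covariate (1.63, adjusted p 0.0436). Over the fits that each left out 1 library it reached at most 1.81, with adjusted p up to 0.264. Over all Sik-targeted libraries it was 1.27 (SE 0.51, adjusted p 0.114), which became 1.53 (adjusted p 0.0325) without sgSik1-3 replicate 1. Lkb1-deleted libraries differed from Sik-targeted ones by -1.38 (SE 0.57, adjusted p 0.330), and from KT by -0.11 (SE 0.56, adjusted p 0.961).

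Insr (gene ID 16337), the insulin receptor gene at chr8:3150922-3279649 on the minus strand, was the steadiest. KT libraries had Insr at 74.1, 81.5, 68.6 and 80.4 CPM, Lkb1-deleted ones at 85.8, 83.3 and 95.9, the sgSik1 group at 72.5, 109 and 103 and the sgSik1-3 pair at 87.6 and 67.9. All 3 Lkb1-deleted libraries lay above all KT libraries, yet the difference was 0.21 (SE 0.28, adjusted p 0.813), and its interval of -0.33 to 0.76 covers no change. For Sik-targeted libraries it was 0.21 (SE 0.25, adjusted p 0.618, interval -0.27 to 0.69).

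Igf2r (gene ID 16004), which encodes the receptor that clears IGF2, spans chr17:12682406-12769706 on the minus strand. KT libraries had Igf2r at 86.2, 61.7, 73.6 and 112 CPM, Lkb1-deleted ones at 122, 102 and 97.3, the sgSik1 group at 139, 112 and 107 and the sgSik1-3 pair at 107 and 147. Only KT replicate 4 reached the values of the other groups. The difference was 0.56 with Sik targeting (SE 0.26, adjusted p 0.176) and 0.36 with Lkb1 deletion (SE 0.29, adjusted p 0.668), neither past the threshold. Airn, an antisense RNA of the Igf2r locus, overlaps none of its exons in the annotation and stood at 0.73 to 13.1 CPM.

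**Figure D4:**
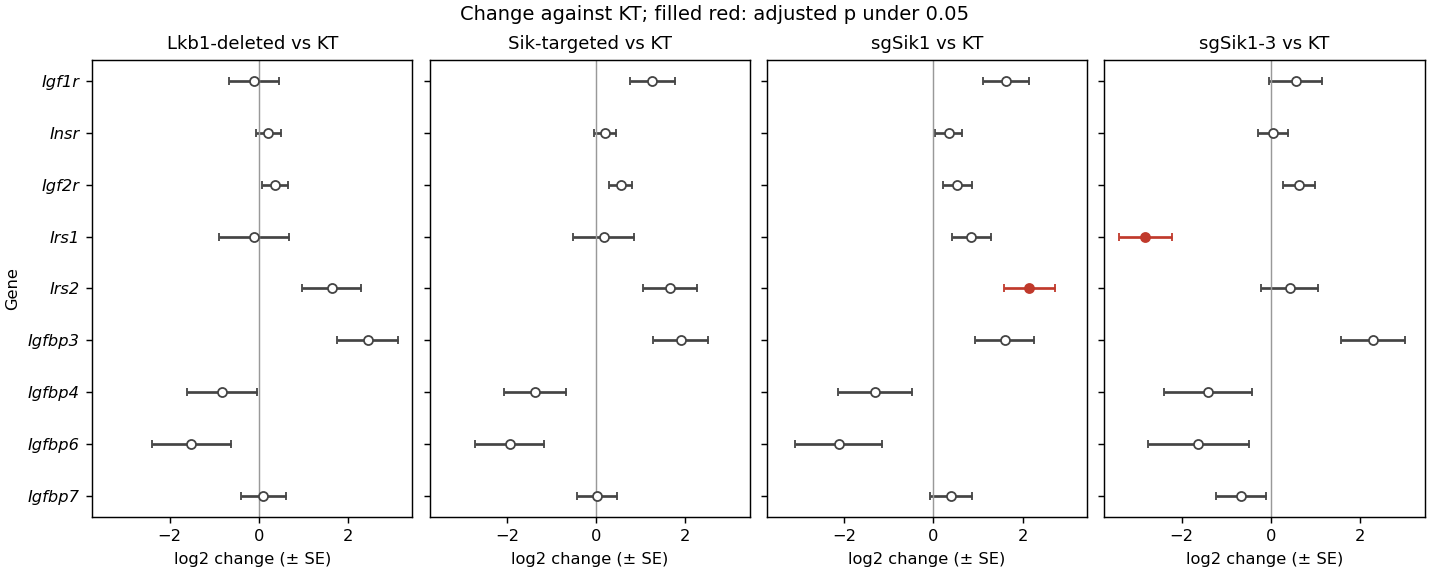
Fitted log2 change against KT with its SE for the 9 members tested, in 4 panels for Lkb1-deleted, all Sik-targeted, sgSik1 and sgSik1-3 libraries, where a filled red dot has an adjusted p under 0.05. The filled dots are Irs2 in sgSik1 (2.15) and Irs1 in sgSik1-3 (-2.81).

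Over the members as a group, 0 of 9 tested passed with Lkb1 deletion against KT in edgeR, where 1.16% of 13575 genes passed, and 2 (Irs2 and Igfbp3, both higher) had an unadjusted p under 0.05, as did 13.1% of all genes. Igfbp2 did not pass the low-count filter in any comparison. With Sik targeting against KT 0 of 9 passed, where 12.4% of genes did, and 4 had an unadjusted p under 0.05 (Irs2, Igf1r and Igfbp3 higher, Igfbp6 lower), as did 28.5% of all genes. Between Lkb1-deleted and Sik-targeted libraries 0 of 9 passed, where 0.221% of genes did, and 1, Igf1r, had an unadjusted p under 0.05 (0.0271), as did 12.7% of all genes. DESeq2 called 1 member with Lkb1 deletion (Igfbp3) and 2 with Sik targeting (Irs2 and Igfbp3), where it called 4.07% and 18.6% of all genes, and 0 between the 2 groups. The median change of the 9 members was 0.11 with Lkb1 deletion and 0.21 with Sik targeting, beside -0.04 and -0.03 over all tested genes.

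The ligands came mostly from few libraries. Ins1 had 0 counts in all 12 libraries, which allows up to 0.0303 CPM over the 12 together (3 counts, for counting error only), and Ins2 had 3 counts in all, in KT. KT libraries had Igf1 at 3.78, 20.3, 25.1 and 33.7 CPM, Lkb1-deleted ones at 0.364, 109 and 11.9, the sgSik1 group at 2.56, 6.83 and 2.13 and the sgSik1-3 pair at 1.65 and 3.08. Lkb1-deleted replicate 2 was the highest and Lkb1-deleted replicate 1 the lowest of all 12.

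The Igf1 change with Sik targeting was -2.65 (SE 0.98, adjusted p 0.0918), not past the threshold, and it passed without Lkb1-deleted replicate 1 (-2.62, adjusted p 0.0115) or 2 (-2.63, adjusted p 0.0318), with only these groups fitted (-2.69, adjusted p 0.00665) and without a low-count filter. Levels of markers of possible source cells are given here beside the Igf1 values. Summed over 12 fibroblast and pericyte markers, KT libraries had 31.5, 125, 206 and 420 CPM, Lkb1-deleted ones 3.04, 444 and 88.3, the sgSik1 group 56.6, 34.6 and 18.2 and the sgSik1-3 pair 24.6 and 44.0, with Lum, Pdgfra and Tcf21 at 0 in Lkb1-deleted replicate 1. Over 12 leukocyte and macrophage markers the sums were 13669, 5864, 5745 and 9960 CPM in KT and 711, 1985 and 2030 in Lkb1-deleted libraries. They were 101, 1076 and 90.3 in sgSik1 and 185 and 102 in sgSik1-3. Of 10 tested fibroblast markers 3 fell with Sik targeting, and of 10 tested leukocyte and macrophage markers 8 did, where 12.4% of genes passed. With Lkb1 deletion 0 and 5 of them fell, where 1.16% of genes passed. Cd52 was at 0 in all 5 Sik-targeted libraries and Emr1 in 4 of them. Both were also at 0 in all 3 Lkb1-deleted libraries, and Cd52 in KT replicate 2. The part of these marker genes in the Igf1 values was not tested, nor were the cells that the marker reads came from. KT libraries had Igf2 at 0.31 to 3.57 CPM, Lkb1-deleted ones at 0.49, 24.8 and 17.6 and Sik-targeted ones at 0.24 to 10.96, with a change of 3.06 under Lkb1 deletion (SE 1.17, adjusted p 0.260).

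The binding protein genes fell into an abundant one, Igfbp7, and 4 at low levels. Igfbp3 (gene ID 16009, chr11:7206086-7215498, minus strand) encodes the main carrier of IGFs in blood. KT libraries had Igfbp3 at 2.83, 3.42, 2.65 and 5.31 CPM, Lkb1-deleted ones at 4.50, 45.2 and 7.53, the sgSik1 group at 14.5, 11.1 and 6.17 and the sgSik1-3 pair at 8.27 and 25.7. All 5 Sik-targeted libraries and 2 of 3 Lkb1-deleted libraries lay above all KT libraries.

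The Igfbp3 change was 1.90 with Sik targeting (SE 0.63, adjusted p 0.0599; 13.1 ± 7.68 CPM, n = 5, against 3.55 ± 1.21, n = 4), just outside the threshold. It passed with DESeq2 (1.88, adjusted p 0.0185), with only the groups compared (1.87, adjusted p 0.0156), with no low-count filter, and without Lkb1-deleted replicate 1, 2 or 3 (1.92, 1.91 and 1.91, adjusted p 0.0225, 0.0166 and 0.0494). With Lkb1 deletion it was 2.44 (SE 0.68, adjusted p 0.106). That value rested on Lkb1-deleted replicate 2, without which it was 0.78 (adjusted p 0.561), and it passed without Lkb1-deleted replicate 1 (2.93, adjusted p 0.0412) and with DESeq2 (2.45, adjusted p 0.0188). By title, Igfbp3 differed from KT by 1.596 in sgSik1 (SE 0.67, adjusted p 0.170) and by 2.29 in sgSik1-3 (SE 0.73, adjusted p 0.0962), and all libraries of both lay above KT. The sgSik1-3 value passed when Lkb1-deleted replicate 1 (2.30, adjusted p 0.0326) or 2 (2.29, adjusted p 0.0295) was left out of the fit. It was 1.26 (adjusted p 0.625) without sgSik1-3 replicate 2 and turned in sign with the Y-linked covariate (-0.25, adjusted p 0.971). Lkb1-deleted replicate 2, the highest in Igfbp3, was also the highest in fibroblast markers (444 CPM) and endothelial markers (241 CPM against 1.70 to 87.8 elsewhere). The Sik-targeted libraries were at 18.2 to 56.6 CPM of fibroblast markers, below 3 of the 4 KT libraries. The part of these markers in the Igfbp3 values was not tested.

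Igfbp4 (gene ID 16010, chr11:99040005-99052655, plus strand) encodes an inhibitory binding protein. KT libraries had Igfbp4 at 3.30, 7.37, 26.2 and 14.9 CPM, Lkb1-deleted ones at 0.729, 16.7 and 4.41, the sgSik1 group at 6.54, 6.83 and 2.29 and the sgSik1-3 pair at 5.67 and 3.98. The groups overlapped, and KT replicates 3 and 4 and Lkb1-deleted replicate 2 were highest, which were also the 3 libraries with the highest fibroblast marker level. The change was -1.37 with Sik targeting (SE 0.69, adjusted p 0.207) and -0.82 with Lkb1 deletion (SE 0.79, adjusted p 0.726). In sgSik1-3 against KT it was -1.40 (SE 0.98, adjusted p 0.411). With the Y-linked covariate, under which Irs1 no longer passed there, Igfbp4 did (-5.24, adjusted p 0.0358), where 10.7% of all genes passed. Without the covariate 2.89% did, and the libraries of sgSik1-3 and KT overlapped. The covariate estimate rests on the 3 Lkb1-deleted libraries. Of these, replicate 1 alone counted as without Y-linked transcripts, and it held 6 counts of Igfbp4.

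**Figure D5:**
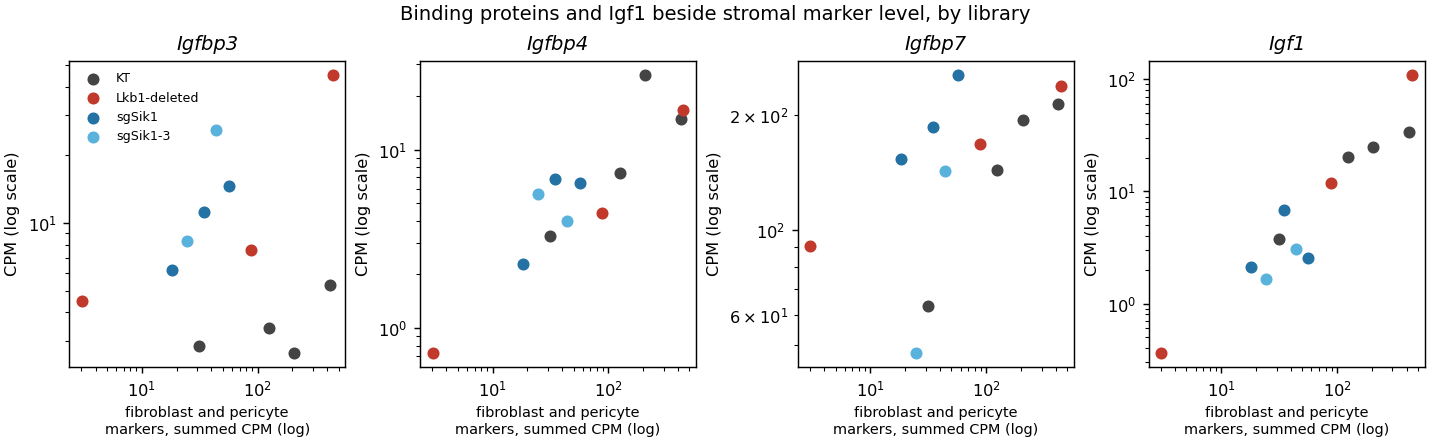
Level of Igfbp3, Igfbp4, Igfbp7 and Igf1 in CPM against the summed CPM of 12 fibroblast and pericyte markers, both on log axes, with 1 dot per library coloured by group. Lkb1-deleted replicate 1 (3.04 CPM of markers) is lowest in Igfbp4 and Igf1, and the Sik-targeted libraries lie above KT in Igfbp3 at lower marker levels than 3 of the 4 KT libraries.

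Igfbp7 (gene ID 29817, chr5:77349240-77408045, minus strand) encodes a secreted protein of the matrix with low affinity for IGFs. KT libraries had Igfbp7 at 63.4, 143, 195 and 214 CPM, Lkb1-deleted ones at 90.8, 238 and 168, the sgSik1 group at 255, 186 and 153 and the sgSik1-3 pair at 47.7 and 143. All groups overlapped with KT, and the change was 0.03 with Sik targeting (SE 0.45, interval -0.85 to 0.91) and 0.11 with Lkb1 deletion (SE 0.51, interval -0.89 to 1.10). Igfbp7 shares 85 exonic bases with Polr2b on the other strand.

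Igfbp6 (gene ID 16012, chr15:102144186-102149512, plus strand), whose protein prefers IGF2, was near the limit of counting. KT libraries had Igfbp6 at 4.56, 1.71, 0.562 and 2.12 CPM and Lkb1-deleted ones at 0.121, 0.617 and 1.65. The Sik-targeted libraries had it at 0.284 to 0.905 CPM, from 22 counts over 5 libraries. KT replicate 3 overlapped the other groups. The change was -1.94 with Sik targeting (SE 0.77, adjusted p 0.112) and -1.51 with Lkb1 deletion (SE 0.89, adjusted p 0.509). Igfbp2 (gene ID 16008, chr1:72824480-72852474, plus strand) had 51 counts over all 12 libraries, with 25 of them in KT, and stood at 0 to 1.27 CPM, where 3 counts are worth 0.164 to 0.853 CPM in a library. Both sgSik1-3 libraries lay below KT, from 1 and 2 counts, and a difference was not detectable at this depth.

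Outside the members, Igfbp1 had 3 counts in all, in KT, and KT libraries had Igfbp5 at 9.76 to 59.4 CPM, Lkb1-deleted ones at 3.52, 49.3 and 38.0 and Sik-targeted ones at 3.00 to 22.5 (change -1.42 with Sik targeting, SE 0.74, adjusted p 0.227). The stanniocalcins, which inhibit the proteases that free IGFs from binding proteins, were among the called genes. Stc1 rose by 5.43 with Lkb1 deletion (SE 0.51, adjusted p 0.000182) and by 6.60 with Sik targeting (SE 0.52, adjusted p 1.58e-05), and Stc2 rose by 4.32 with Sik targeting (SE 0.68, adjusted p 0.00224) and was at 0.21 to 2.20 CPM in Lkb1-deleted libraries (0.36, SE 0.74, adjusted p 0.898).

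A list of 95 further genes of the pathway was examined, from ligands and adaptors to AKT, mTOR and FOXO targets, of which 81 were tested. With Lkb1 deletion 1 rose (Stc1) and 0 fell in edgeR, where 1.16% of all genes passed, and 8 passed with DESeq2, where 4.07% did. The median change was 0.30 beside -0.04 over all genes. With Sik targeting 5 rose and 3 fell, where 12.4% of all genes passed, and 14 passed with DESeq2, where 18.6% did. The median there was 0.18 beside -0.03. None of the 18 TSC and mTOR genes passed in either comparison, and of 19 PI3K and AKT genes 1 rose, Trib1, with Sik targeting. The other calls with Sik targeting were the adaptor genes Shc1 (higher) and Grb10 and Socs2 (lower) and, among FOXO target genes, Cdkn1a (higher) and Sesn1 (lower).

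Grb10 encodes an adaptor that binds the activated insulin and IGF1 receptors and restrains their signal. KT libraries had Grb10 at 34.8, 28.0, 24.9 and 43.3 CPM, Lkb1-deleted ones at 41.7, 45.3 and 24.2, the sgSik1 group at 7.11, 10.5 and 12.2 and the sgSik1-3 pair at 3.54 and 5.61. The 5 Sik-targeted libraries lay below all 7 others. Grb10 fell by 2.04 with Sik targeting (SE 0.37, adjusted p 0.00454; 7.80 ± 3.55 CPM, n = 5, against 32.7 ± 8.16, n = 4), a call kept in all 20 alternatives, at -2.32 to -1.81.

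With Lkb1 deletion the Grb10 change was 0.18 (SE 0.41, adjusted p 0.907). The difference between Lkb1-deleted and Sik-targeted libraries was itself past the threshold, at 2.23 (SE 0.39, adjusted p 0.0284). It kept its direction in all 20 alternatives and its call in 10, and was lost without KT replicate 2 or 3 (adjusted p 0.0548 and 0.0506), Lkb1-deleted replicate 2 or 3 (0.166 and 0.0551), sgSik1 replicate 1 (0.0556) or sgSik1-3 replicate 1 or 2 (0.0565 and 0.111), at changes of 2.05 to 2.45. It was also lost with the replicate number as a block (2.24, adjusted p 0.0963), with only these groups fitted (2.25, adjusted p 0.158) and with both KT replicates 2 and 3 left out (2.27, adjusted p 0.0775). The corresponding difference for Stc2 was -3.96 (SE 0.75, adjusted p 0.0422), and it kept its call in 5 of 20 alternatives. The call was lost without any one of KT replicates 1 to 4, Lkb1-deleted replicate 2 or 3, sgSik1 replicate 1 or 3 or either sgSik1-3 replicate, at changes of -4.61 to -3.42 and adjusted p of 0.0576 to 0.167. It was also lost with the replicate block (adjusted p 0.0664), with limma-voom (0.0729), with the Y-linked covariate (0.0777), with only these groups fitted (0.161) and with both KT replicates 2 and 3 left out (0.110).

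Socs2, a feedback inhibitor of growth hormone and cytokine receptors, fell by 1.30 with Sik targeting (SE 0.32, adjusted p 0.0179), from 78.9 to 135 CPM in KT to 24.4 to 68.5, and was lost without KT replicate 2 (-1.21, adjusted p 0.0630). With Lkb1 deletion Socs2 stood at 31.6, 42.1 and 42.1 CPM, all below KT (-1.53, SE 0.38, adjusted p 0.0692). It passed there in 5 of 20 alternatives. These were the fit without sgSik1 replicate 1 (-1.54, adjusted p 0.0363), DESeq2 (adjusted p 0.00455) and no low-count filter (0.0195). The others were only the groups compared (adjusted p 0.0391) and limma-voom (0.0415). Trib1, a pseudokinase gene whose product can bind AKT, rose by 2.09 with Sik targeting (SE 0.49, adjusted p 0.0143) a call lost when KT replicate 2 (1.92, adjusted p 0.0602) or KT replicate 3 (1.92, adjusted p 0.0577) was left out. Cdkn1a, the p21 cell cycle inhibitor gene, rose by 2.87 (SE 0.68, adjusted p 0.0152), with 3151 CPM in sgSik1 replicate 1 against 254 to 618 in the other Sik-targeted libraries and 88.1 to 201 in KT, a call lost when KT replicate 2 (2.89, adjusted p 0.0542) or KT replicate 3 (2.75, adjusted p 0.0577) was left out, and under the replicate block (2.85, adjusted p 0.0524). Without sgSik1 replicate 1 the Cdkn1a change was 1.68 and still passed.

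Shc1, an adaptor that links receptors to RAS, rose by 0.89 (SE 0.27, adjusted p 0.0437), and was lost without any one of KT replicates 1 to 4, Lkb1-deleted replicate 3, sgSik1 replicate 2 or 3 or sgSik1-3 replicate 2 (0.81 to 1.01, adjusted p 0.0525 to 0.145), under the replicate block (adjusted p 0.131), with no low-count filter (0.0840) and with only the groups compared (0.0515). Sesn1, a sestrin gene that restrains mTOR, fell by 1.43 (SE 0.40, adjusted p 0.0328), and was lost without KT replicate 2, 3 or 4, sgSik1 replicate 3 or either sgSik1-3 replicate (-1.502 to -1.331, adjusted p 0.0590 to 0.107) and under the replicate block (adjusted p 0.0762). With both KT replicates 2 and 3 left out, where 0.740% of all genes passed with Sik targeting, none of Stc2, Socs2, Trib1, Cdkn1a, Shc1 and Sesn1 passed (adjusted p 0.0762 to 0.383). With Lkb1 deletion Trib1 (2.18, SE 0.52, adjusted p 0.0606), Cdkn1a (1.99, SE 0.70, adjusted p 0.204) and Shc1 (0.98, SE 0.30, adjusted p 0.147) were higher than KT in all 3 libraries without passing. Trib1 passed there in 7 of 20 alternatives. Among them were the fits without KT replicate 4 (2.80, adjusted p 0.0316), sgSik1 replicate 1 (2.18, adjusted p 0.0258) or sgSik1-3 replicate 1 (2.18, adjusted p 0.0494). Cdkn1a passed in 3 of 20, without sgSik1 replicate 1 (1.99, adjusted p 0.0210), with no low-count filter (0.00309) and with only the groups compared (0.0388). Shc1 passed in 1 of 20, with DESeq2 (0.99, adjusted p 0.0255).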

How the data were processed

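The authors deposited whole-number read counts for 30743 gene symbols in 12 libraries, and 0 columns stayed unmapped. Per the labels' protocols, tumours were digested at 37C, sorting removed blood and endothelial cells by CD45, CD31, F4/80 and Ter119, and an Ovation kit made amplified cDNA for the libraries. Amplification can add spread between libraries, and without molecule tags copies cannot be told from molecules. The submitters' processing notes name STAR 2.4.2a, HTSeq and mm10. Not given in the sources used here were annotation and strand.

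The main test was edgeR 4.0.16 under R 4.3.3 (TMM normalization, filterByExpr, robust quasi-likelihood F test, 2-sided, Benjamini-Hochberg adjustment over all tested genes, threshold 0.05) in 1 fit of 3 genotype groups (13575 genes) and 1 fit of 4 title groups (15303 genes). The spread was estimated over all libraries in each fit. CPM were computed on TMM library sizes, and intervals are the log2 change ± 1.96 SE. This normal quantile makes the intervals narrower than the F test implies. For Igf2r with Sik targeting the interval was 0.04 to 1.07 at an unadjusted p of 0.0502 in that test. Alternatives were DESeq2 1.42.0, other normalization, no low-count filter, a replicate block, each library left out, a covariate for Y-linked transcripts (over 5 CPM) and, in the fit of 3 groups alone, limma-voom (limma 3.58.1) and only the compared groups. The covariate in the fit of 4 groups and alternatives for other pathway genes were chosen after seeing the data, as was the E-box. Counting intervals and floors cover counting error only. The test was also run on simulated negative binomial counts with planted changes. These held no differences in cell content between libraries, so that run does not show how reliable the calls are here. Within groups, counts of no 2 libraries matched to within counting error. KT replicates 2 and 3 differed least by a chi-square scaled to its degrees of freedom (15.1), followed by the sgSik1-3 pair (38.0). Such a check can find a library sequenced again, but not separate libraries made from the same tumour or mouse. Whether KT replicates 2 and 3 were independent was therefore not tested. The members and lists were chosen with earlier results of these data known. Named were all 10 members, the ligands, Igfbp1 and Igfbp5, called genes of the pathway lists in the comparisons with KT (up to 8 each), and the 3 genes most correlated with each called member. Coordinates come from GENCODE (GRCm38) and promoters from RefSeq (GRCm38.p6). Predicted, clone, Xist, Tsix, Y-linked and mitochondrial genes were not named, except antisense neighbours of members. Same-numbered KT and sgSik1 libraries deviated together (r 0.139, 0.246 and 0.126 for replicates 1 to 3), so the blocked value stands beside that comparison. Some pairs with unlike numbers deviated together as well (KT replicate 2 with sgSik1 replicate 3, r 0.288).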

Additional observations from a re-analysis of the deposited data

Results flagged for a closer look

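In the 5 Sik-targeted libraries, the Irs2 value of sgSik1 replicate 1, 271 CPM, lay far from the other 4, which were at 25.5 to 57.8 CPM. In the same group Igfbp2 was at 1.14 CPM in sgSik1 replicate 1 against 0.236 to 0.362 in the others, where 1.14 CPM came from 4 counts. Both were singled out by the gap of the highest library to its neighbour (Dixon's test at the 95% level). The test was run on 20 sets of values (10 genes in the KT and Sik-targeted groups), of which 2 were singled out, and chance alone singles out about 1 in 20 sets. sgSik1 replicate 1 is also the library with 74.2% of its counts in 4 transcripts and the highest level of dissociation-response genes.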

How the results depend on the processing

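Results rest on 2 to 5 libraries a group, and calls near the threshold moved with the fit. Members called numbered 0, 0, 0, 1, 1 and 0 in the 6 comparisons as reported. Of all genes 1.16%, 12.4%, 0.221%, 3.84%, 2.89% and 0% passed there, in the same order. With DESeq2 they were 1 (Lkb1-deleted vs KT), 2 (Sik-targeted vs KT), 2 (sgSik1 vs KT) and 1 (sgSik1-3 vs sgSik1), where 4.07%, 18.6%, 9.44% and 0.0392% of all genes passed. With no low-count filter they were 2, 4, 1 (Lkb1-deleted vs Sik-targeted), 3, 2 (sgSik1-3 vs KT) and 1, where 3.29%, 14.2%, 2.71%, 6.92%, 5.59% and 0.171% of all genes passed. With only the groups compared 1 member was called for Sik-targeted vs KT, where 14.3% of all genes passed. For sgSik1 vs KT the count was 0 with DESeq2's size factors in edgeR (3.69% of all genes passed) and 0 without KT replicates 2 and 3 (0.00755%). It was 2 with the Y-linked covariate (8.61%). For sgSik1-3 vs KT the count was 0 without KT replicates 2 and 3 (0.0830%). With the Y-linked covariate it was 1, Igfbp4 in place of Irs1 (10.7%). Leaving out 1 library gave 0 to 1, 0 to 1, 0 to 2 and 0 to 2 in the 4 comparisons with KT. The share of all genes that passed then ran from 0.101% to 1.79% for Lkb1-deleted vs KT. It ran from 4.47% to 17.4% for Sik-targeted vs KT and from 0.904% to 8.32% for sgSik1 vs KT. For sgSik1-3 vs KT it ran from 0.952% to 7.39% with both sgSik1-3 libraries kept. Of other pathway genes, 1 as reported for Lkb1-deleted vs KT became 8 with DESeq2 and 8 with no filter. The count was 3 with only the groups compared (1.14% of all genes passed), 4 with limma-voom (1.65%) and 1 to 5 without 1 library. For Sik-targeted vs KT, 8 as reported became 14 with DESeq2, 18 with no filter and 4 to 12 without 1 library. Without KT replicates 2 and 3 it was 2, where 0.740% of all genes passed. The shares for the other settings are those given above. The cause was not tested. Without KT replicates 2 and 3, the log2 change of these turned in sign: Grb10 -0.049, Igfbp5 -0.18 (Lkb1-deleted vs KT), Irs2 0.038 (Lkb1-deleted vs Sik-targeted) and Irs1 -0.22 (Sik-targeted vs KT). With limma-voom, the log2 change of these turned in sign: Igf1 -0.93, Stc2 -0.10 (Lkb1-deleted vs KT), Igfbp4 -0.074, Igfbp6 -0.15, Irs1 0.56, Irs2 0.36 (Lkb1-deleted vs Sik-targeted) and Igfbp7 -0.016, Irs1 -0.62 (Sik-targeted vs KT). With no low-count filter, the log2 change of these turned in sign: Irs2 0.028 (Lkb1-deleted vs Sik-targeted). With only the groups compared, the log2 change of these turned in sign: Irs2 0.00099 (Lkb1-deleted vs Sik-targeted) and Igfbp7 -0.0022 (Sik-targeted vs KT). With the Y-linked covariate, the log2 change of these turned in sign: Igf1 -0.022, Igf1r 0.12, Igfbp5 -0.33, Irs1 1.94 (Lkb1-deleted vs KT), Igfbp3 -0.052, Igfbp4 -0.052, Igfbp6 -0.15, Irs1 1.45, Irs2 0.50 (Lkb1-deleted vs Sik-targeted), Igf1r -0.95, Igfbp3 -0.25, Insr -0.0051, Irs2 -0.83 (sgSik1-3 vs KT) and Igfbp3 -1.84, Igfbp6 -2.54 (sgSik1-3 vs sgSik1). Leaving out 1 library turned the sign of these, given from lowest to highest: Igf1 -1.76 to 1.57, Igf1r -0.94 to 0.25, Igfbp5 -0.21 to 1.26, Igfbp7 -0.23 to 0.41, Irs1 -0.32 to 0.079, Stc2 -0.27 to 0.93 (Lkb1-deleted vs KT), Igfbp3 -1.13 to 1.01, Igfbp4 -1.005 to 1.08, Igfbp6 -0.58 to 0.94, Igfbp7 -0.29 to 0.36, Insr -0.077 to 0.094, Irs1 -0.57 to 0.25, Irs2 -0.52 to 0.95 (Lkb1-deleted vs Sik-targeted), Igf2 -0.30 to 1.68, Igfbp7 -0.24 to 0.26, Irs1 -0.35 to 0.47 (Sik-targeted vs KT), Igf1r -1.15 to 1.32, Insr -0.15 to 0.23, Irs2 -0.15 to 0.83 (sgSik1-3 vs KT), Igf2r -0.16 to 0.29, Igfbp3 -0.35 to 1.28, Igfbp4 -0.48 to 0.19, Igfbp6 -0.054 to 0.86 (sgSik1-3 vs sgSik1). None of the changes that turned in sign had passed the threshold.

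Over all groups, same-numbered libraries had deviations correlated at r from -0.48 to 0.27 over 15 pairs, 7 of them over 0.1. All 3 same-numbered pairs of KT with sgSik1 were over 0.1, and in no other comparison were all pairs, so the block was set beside that comparison. KT and sgSik1 libraries with unlike numbers ran from r -0.342 to 0.288, and KT replicate 4 with sgSik1 replicate 1 was at 0.240. So the correlations did not single out the same-numbered pairs, and the labels state no pairing. With the replicate block, 0 members were called for sgSik1 vs KT (Irs2 2.37, adjusted p 0.0897, edgeR), where 1.66% of all genes passed. For sgSik1-3 vs KT the count was 0 as well (Irs1 -2.79, adjusted p 0.0768), where 0.823% did. Of other pathway genes 2 and 5 were called for Lkb1-deleted and Sik-targeted vs KT, where 0.361% and 7.73% of all genes passed. With the replicate block, the log2 change of these turned in sign: Irs1 0.024 (Lkb1-deleted vs KT), Igfbp7 -0.075, Insr -0.0072, Irs2 0.16 (Lkb1-deleted vs Sik-targeted) and Igfbp4 0.093 (sgSik1-3 vs sgSik1).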
